A study of Mus musculus with 2 samples.

Results

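The genes described here are the INK4 inhibitors Cdkn2a, Cdkn2b, Cdkn2c and Cdkn2d, the CIP/KIP inhibitors Cdkn1a and Cdkn1b, and Mtap, which lies next to Cdkn2a on mouse chromosome 4. They were picked by gene symbol, with values of these libraries already known, and all 7 were rows of the 16190-gene count table. RNA was sequenced from satellite cells (as labelled), the stem cells of muscle, taken from the tibialis anterior muscle of C57BL/6 mice. One library came from CIPC-scko mice, labelled Cipc-scko, in which Cipc was deleted specifically in satellite cells per the series title, and 1 from mice with floxed alleles of the gene, labelled Cipc-flox/flox. The sample titles give Cipc-/- and Cipc+/+ for the same libraries. CLOCK-interacting pacemaker, the product of this gene, is a repressor of the circadian CLOCK and BMAL1 pair. The sources used here do not give the Cre driver, the age of the mice or the number pooled per library, and the labels of these samples do not mention mdx, which the series title does. With 1 library per group nothing below has a replicate check or a p-value: each value describes these libraries, and each 95% interval covers counting error only.

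INK4 proteins bind CDK4 and CDK6 and keep them from pairing with D-type cyclins, which holds the retinoblastoma protein active and cells in G1. CIP/KIP proteins bind cyclin-CDK complexes more broadly, CDK2 above all. Cdkn2a is unusual in encoding 2 unrelated proteins from shared exons: p16INK4a, a CDK4 and CDK6 inhibitor, and p19ARF in mouse, which binds MDM2 and so stabilizes p53. Cdkn2b encodes p15INK4b, Cdkn2c p18INK4c, Cdkn2d p19INK4d, Cdkn1a p21 and Cdkn1b p27. In muscle, p21 and p18 are known for the cell cycle exit of differentiating myoblasts, and p16 for the senescence of aged satellite cells. Mtap encodes methylthioadenosine phosphorylase, a salvage enzyme of polyamine synthesis, and is often lost together with Cdkn2a in human tumours.

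Cdkn2a has 2 annotated transcripts with separate promoters, the upstream one for p19ARF and the downstream one for p16INK4a, and the counts do not tell the transcripts apart. The windows below run from 250 bases before to 50 after each start and come from RefSeq on GRCm38.p6, where all 7 genes matched, with 10 windows in all. They are shown because Cdkn2a and Cdkn2b had no counts in 1 library, and because Cdkn1a was the most abundant inhibitor. Capitals mark GGGCGG, the GC box bound by the Sp1 family, CACGTG, the E-box bound by CLOCK and BMAL1, and CAGCTG, an E-box that MyoD can bind. All 3 were searched on both strands, and no marked match overlapped another.
Cdkn2a upstream start (chr4:89294570-89294869, minus strand): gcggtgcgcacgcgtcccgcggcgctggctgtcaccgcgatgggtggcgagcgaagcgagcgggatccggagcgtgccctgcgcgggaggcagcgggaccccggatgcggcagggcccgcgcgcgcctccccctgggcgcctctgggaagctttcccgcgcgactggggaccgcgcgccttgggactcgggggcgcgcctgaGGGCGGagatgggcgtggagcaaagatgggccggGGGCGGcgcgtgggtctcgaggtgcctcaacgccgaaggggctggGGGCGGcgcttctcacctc
Cdkn2a downstream start (chr4:89282143-89282442, minus strand): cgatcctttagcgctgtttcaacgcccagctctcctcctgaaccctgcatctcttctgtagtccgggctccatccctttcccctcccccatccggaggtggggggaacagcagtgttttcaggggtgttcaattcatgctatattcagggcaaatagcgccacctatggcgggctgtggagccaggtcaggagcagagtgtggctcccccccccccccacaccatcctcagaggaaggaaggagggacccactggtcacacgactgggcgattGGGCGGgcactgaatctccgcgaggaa
Cdkn2b (chr4:89310983-89311282, minus strand): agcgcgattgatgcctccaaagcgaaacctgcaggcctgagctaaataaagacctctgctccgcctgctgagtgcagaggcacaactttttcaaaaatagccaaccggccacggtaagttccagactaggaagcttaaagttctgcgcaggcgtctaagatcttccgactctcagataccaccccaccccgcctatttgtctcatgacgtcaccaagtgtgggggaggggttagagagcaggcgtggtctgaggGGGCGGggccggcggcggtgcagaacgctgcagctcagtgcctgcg
Cdkn1a upstream start (chr17:29090729-29091028, plus strand): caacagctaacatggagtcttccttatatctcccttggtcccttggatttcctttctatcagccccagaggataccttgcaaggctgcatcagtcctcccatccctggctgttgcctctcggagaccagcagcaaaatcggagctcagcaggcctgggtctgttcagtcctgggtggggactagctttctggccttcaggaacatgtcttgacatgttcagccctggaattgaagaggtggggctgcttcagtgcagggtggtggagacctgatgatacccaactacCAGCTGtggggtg
Cdkn1a downstream start (chr17:29093519-29093818, plus strand): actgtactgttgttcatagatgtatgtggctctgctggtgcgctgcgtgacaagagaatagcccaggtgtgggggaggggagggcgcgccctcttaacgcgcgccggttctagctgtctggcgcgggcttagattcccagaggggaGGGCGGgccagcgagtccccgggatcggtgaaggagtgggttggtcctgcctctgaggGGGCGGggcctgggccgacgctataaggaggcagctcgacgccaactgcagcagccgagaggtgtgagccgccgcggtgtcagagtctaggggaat
GGGCGG was in 7 of the 10 windows of these genes and in 35.7% of all 32851 promoter windows of the same length. The G and C content ran from 44% to 77% in the 10 windows, against a median of 52.7% over all windows. The shares were not adjusted for it, and some genes have 2 windows. The Cdkn2a upstream window held 3 matches in a sequence of 77% G and C, the downstream window and the Cdkn2b window held 1 each, and the downstream Cdkn1a window held 2. CACGTG was in 1 of the 10 windows, a window of Cdkn2c, against 7.15% of all windows. CAGCTG was in 1 of the 10, the upstream Cdkn1a window, against 16.3% of all. A match describes the letters only.

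The targeted gene was checked first. Cipc had 594 counts in Cipc-scko cells against 1907 in Cipc-flox/flox cells, a log2 ratio of -1.61 (95% interval -1.74 to -1.47), where here and below a positive ratio means higher in Cipc-scko. The libraries held 16830168 counts in Cipc-scko cells against 16145870 in Cipc-flox/flox cells, and a floor of 3 counts stood at 0.187 and 0.177 CPM (counts scaled to library size by TMM). They also differed in sex-linked RNA, with 4 counts of Xist in Cipc-scko cells against 3898 in Cipc-flox/flox cells, and 511 and 0 counts of the Y-linked Ddx3y, so sex and genotype cannot be told apart. Of 10 counted satellite cell markers 3 were higher and 2 lower in Cipc-scko. Pax7, the defining transcription factor, stood at 62.2 CPM in Cipc-scko cells against 2.54 CPM in Cipc-flox/flox cells, and Myf5 at 66.2 and 61.6 CPM. The surface marker Cd34 was lower, with 3 counts in Cipc-scko cells against 427 in Cipc-flox/flox cells (-6.86, -9.36 to -5.52), and so was the transcription factor gene Msc with 0 and 288 counts, at least 91.1-fold lower. In RNA of a bulk cell preparation, a different number of cells of a type and a different amount of RNA per cell cannot be told apart.

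The 7 genes fell into 4 patterns. Cdkn2a and Cdkn2b were counted in the Cipc-scko library alone, Cdkn1a was high in both and higher in Cipc-scko, and Mtap was lower in Cipc-scko. Cdkn2c, Cdkn2d and Cdkn1b differed by less than 2-fold. A gene was called when its ratio was at least 2-fold and the counting interval excluded equality. All 7 passed the filter on low counts, of at least 1 CPM in a library and 20 counts over both. By that rule 3 of the 7 were higher and 1 lower, where 37.2% of 12874 genes across the table were called, 21.2% higher and 15.9% lower. The genes were chosen on this contrast, so their count is a description and nothing is read from it. The same shares over all genes are the background for the counts of each list and window below.

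**Figure D1:**
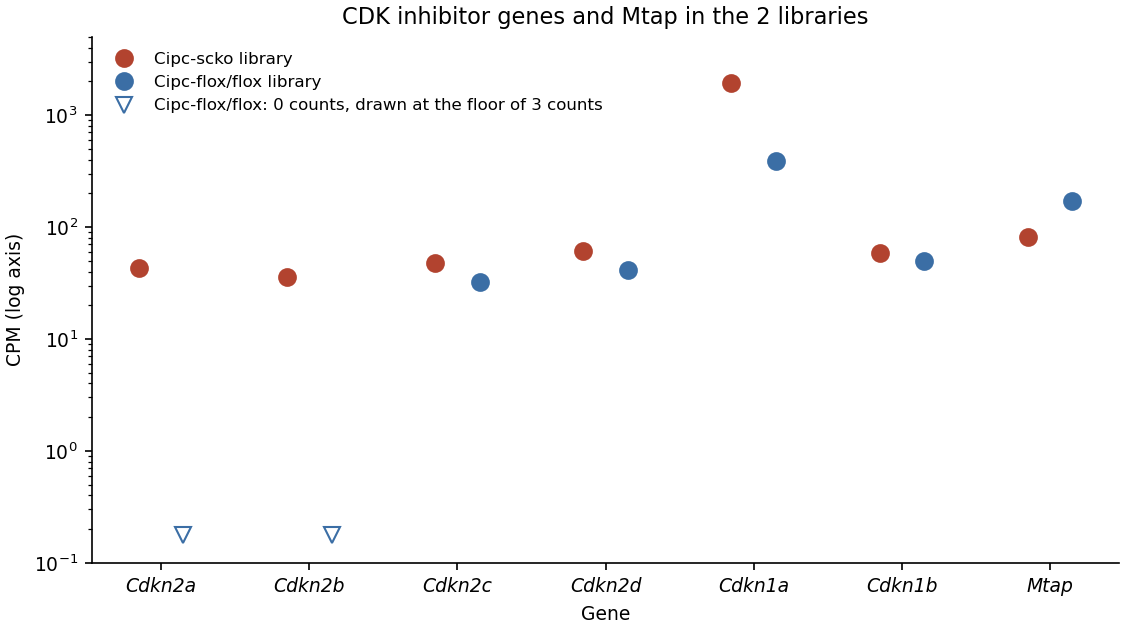
CPM (log axis) of each of the 7 genes in the Cipc-scko library (left point) and the Cipc-flox/flox library (right point). Cdkn2a and Cdkn2b had 0 counts in Cipc-flox/flox and are drawn as open triangles at the floor of 0.177 CPM, while Cdkn1a stood at 1912 and 391 CPM.

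Cdkn2a (ENSMUSG00000044303, GRCm38 chromosome 4, 89274471 to 89294653, minus strand) had 688 counts in Cipc-scko, or 42.9 CPM, and 0 in Cipc-flox/flox. Against the floor of 3 counts in that library it was at least 242-fold higher in Cipc-scko (log2 at least 7.92). Cdkn2b (ENSMUSG00000073802, 89306299 to 89311039, minus strand), the neighbouring inhibitor that responds to TGF-beta in many cell types, had 576 counts in Cipc-scko, or 35.9 CPM, and 0 in Cipc-flox/flox. It was at least 202-fold higher against the same floor (log2 at least 7.66), with an interval that began at 164-fold (7.36). The counts of both genes in Cipc-scko were thus close to each other, and neither gene had a single count in the other library. RNA counts cannot tell a locus that is not transcribed from one that the cells lack, nor whether the libraries differ in origin beyond their labels, and neither was tested. Genes at 0 in a single library were not rare in the comparison. Of 11749 genes with at least 50 counts in a library, 283 had at least 50 counts in Cipc-scko cells and 0 in Cipc-flox/flox cells (2.41%), and 119 the other way round (1.01%). Fewer reached the level of Cdkn2a. Without the Y chromosome, 46 genes, Cdkn2a included, had at least 688 counts in Cipc-scko cells and 0 in Cipc-flox/flox cells. Over all 12874 genes, 0.50% had a ratio as high as Cdkn2a or higher, and 0.57% one as high as Cdkn2b or higher.

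Annotated genes with no counts in Cipc-flox/flox also lay side by side elsewhere. In genome order over the counted genes of the autosomes and X, 278 such genes formed 252 stretches, of which 20 held 2 or more neighbours, or 46 genes. Cdkn2a with Cdkn2b was 1 of 17 stretches of exactly 2. Others were Myh6 with Myh7, cardiac and slow myosin, and Gbp5 with Gbp7, interferon-inducible GTPases, and the longest held 5 genes. With a minimum of 20 counts in Cipc-scko, the noncoding gene Gm12606 joined Cdkn2a and Cdkn2b in a stretch of 3, and 6 stretches held 3 or more. Genes at 0 in Cipc-scko formed 6 stretches of 2 or more at the minimum of 50, for example Nefm with Nefl. These stretches were listed with the values known.

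Around Cdkn2a the zero counts ended within a short distance on one side. Gm12606, a long intergenic RNA gene that starts 1.07 kb beyond the end of Cdkn2a on the same strand, had 27 counts in Cipc-scko cells. It had 0 in Cipc-flox/flox cells, so it was at least 9.49-fold higher in Cipc-scko. Mtap (ENSMUSG00000062937, 89137122 to 89181081, plus strand) ends 93.4 kb from Cdkn2a and was well counted in both libraries. It had 1311 counts in Cipc-scko cells against 2874 in Cipc-flox/flox cells, or 81.7 and 169.8 CPM. The log2 ratio was -1.06 (-1.15 to -0.96), 2.08-fold lower in Cipc-scko (1.95 to 2.22), so the interval included values on either side of the 2-fold limit. The direction was thus opposite to that of Cdkn2a and Cdkn2b. The noncoding gene Gm12602 on the far side of Mtap had 15 counts in Cipc-scko cells against 47 in Cipc-flox/flox cells (-1.54, -2.52 to -0.71).

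Farther out the ratios went both ways. Klhl9, an adaptor of a cullin ubiquitin ligase, had 1396 counts in Cipc-scko cells against 809 in Cipc-flox/flox cells (0.86, 0.74 to 0.99), Hacd4, of very long chain fatty acid synthesis, 310 and 272 counts (0.26, 0.03 to 0.51), and the noncoding gene Wincr1 1 and 6 counts. Beyond Cdkn2b no gene of the count table lay in the next 4.02 Mb, up to Tusc1, which had 67 counts in Cipc-scko cells against 70 in Cipc-flox/flox cells (0.01, -0.49 to 0.52). Within 1 Mb of the Cdkn2a start the annotation lists 70 genes, of which 8 were in the count table. Within 5 Mb, 20 were in the table and 19 passed the filter, of which 4 were higher and 6 lower. Among them Adamtsl1 had 279 counts in Cipc-scko cells against 27 in Cipc-flox/flox cells (3.42, 2.87 to 4.07). The lipid droplet gene Plin2 had 1489 and 10081 counts (-2.68, -2.76 to -2.60), and the noncoding gene Gm12415 had 0 and 42, at least 13.3-fold lower in Cipc-scko. Without Cdkn2a and Cdkn2b the median log2 ratio of the other 17 was 0.01, and over the 792 genes of chromosome 4 it was 0.23. Of those 792, 201 were higher and 85 lower, or 36.1% called against 37.2% over all genes.

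**Figure D2:**
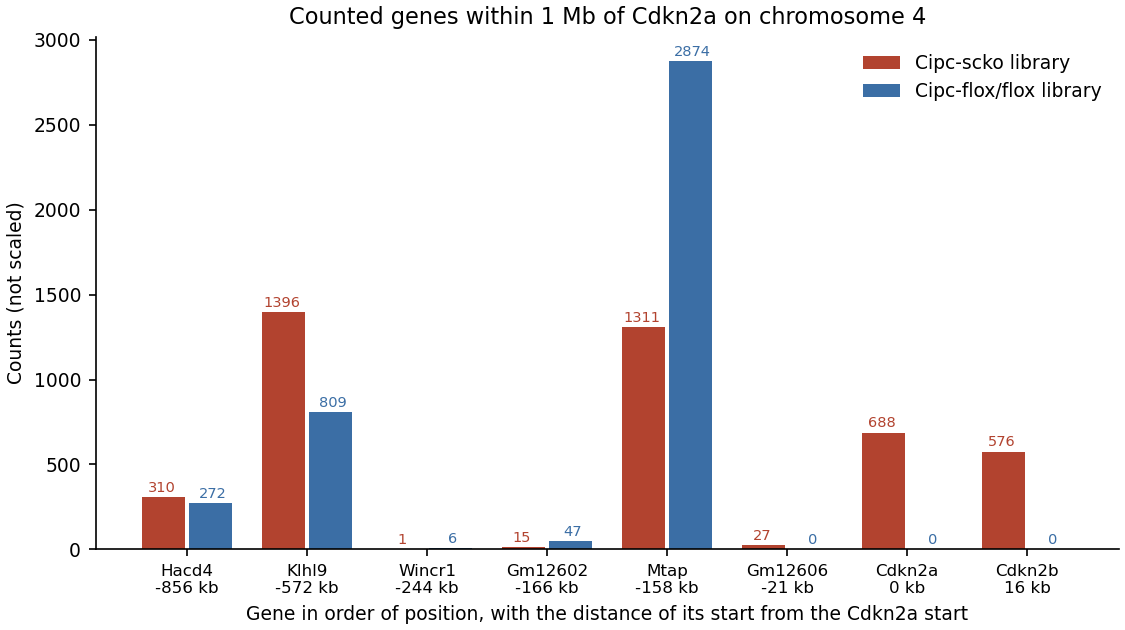
Unscaled counts of the 8 counted genes within 1 Mb of the Cdkn2a start, in order of position, in the Cipc-scko library (left bar) and the Cipc-flox/flox library (right bar), with the distance between gene starts in kb. Gm12606, Cdkn2a and Cdkn2b had 27, 688 and 576 counts in Cipc-scko cells against 0 in Cipc-flox/flox cells, next to Mtap with 1311 and 2874.

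The other INK4 genes were counted in both libraries and were moderately higher in Cipc-scko. Cdkn2c (chromosome 4, 109660876 to 109667189), whose product p18 is known to be induced as myoblasts differentiate, had 771 counts in Cipc-scko cells against 548 in Cipc-flox/flox cells, or 48.0 and 32.4 CPM. Its log2 ratio was 0.57 (0.41 to 0.73). Cdkn2d (chromosome 9, 21288410 to 21291407) had 987 counts in Cipc-scko cells against 702 in Cipc-flox/flox cells, or 61.5 and 41.5 CPM, and a log2 ratio of 0.57 (0.43 to 0.71). Both intervals excluded equality and neither ratio reached 2-fold. Of the 12874 genes 30.04% reached the ratio of Cdkn2c, so this difference was small beside the background.

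The targets of the INK4 proteins differed in several directions. Cdk4 had 4031 counts in Cipc-scko cells against 8856 in Cipc-flox/flox cells (log2 -1.06, -1.11 to -1.01) and was called lower, whereas Cdk6 at 63.2 and 119.7 CPM (-0.92) was not. Among the D cyclins, which activate these kinases, Ccnd3 was higher, at 599.0 CPM in Cipc-scko cells against 162.6 CPM in Cipc-flox/flox cells (1.88, 1.82 to 1.94). Ccnd1, at 177.5 and 334.6 CPM (-0.91), and Ccnd2, at 215.5 and 152.1 CPM (0.50), did not reach 2-fold. The retinoblastoma gene Rb1 was higher at 72.6 and 26.8 CPM (1.44, 1.28 to 1.60), and the S phase transcription factor E2f2 was lower at 11.8 and 48.5 CPM (-2.04, -2.28 to -1.81). Of the 15 genes of the CDK4, cyclin D and RB list, 2 were higher and 2 lower, at a median log2 ratio of -0.48, against 0.01 over all 12874 genes. The share called was 26.7%, against 37.2% over all genes.

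Levels of different genes were set against each other per length, in the deposited FPKM. The 4 INK4 genes summed to 116.0 FPKM in Cipc-scko cells against 46.2 FPKM in Cipc-flox/flox cells, where Cdkn2c and Cdkn2d made up the whole. Cdk4 and Cdk6 summed to 41.0 FPKM in Cipc-scko cells against 93.2 FPKM in Cipc-flox/flox cells. RNA of the 4 INK4 genes per kinase RNA was therefore 2.83 in Cipc-scko cells against 0.496 in Cipc-flox/flox cells, in FPKM. These values depend on the gene lengths behind the FPKM, which were not checked for the kinases. In counts the INK4 genes summed to 3022 in Cipc-scko cells against 1250 in Cipc-flox/flox cells, and the kinases to 5046 and 10882. Which of the 2 sums was larger in Cipc-scko thus differed between FPKM and counts. Scaling between libraries does not touch the FPKM ratio within each library. Its Cdkn2a part, 29.1 FPKM in Cipc-scko, includes any p19ARF transcript, which the counts do not separate and whose protein is not a CDK4 and CDK6 inhibitor. RNA levels say nothing of the amounts of protein.

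Most genes on the list of ARF, MDM2 and p53 did not reach 2-fold. Mdm2, the ubiquitin ligase of p53, stood at 47.7 CPM in Cipc-scko cells against 74.9 CPM in Cipc-flox/flox cells (log2 -0.65, -0.78 to -0.52), Trp53 at 130.9 and 170.3 CPM (-0.38, -0.46 to -0.30), and the nucleolar ARF partner Npm1 at 240.2 and 305.2 CPM (-0.35). The ARF-bound ubiquitin ligase Huwe1 stood at 270.7 and 387.6 CPM (-0.52), and the deubiquitinase Usp7 at 93.0 and 98.7 CPM (-0.09, -0.19 to 0.02). Mdm4, an inhibitor of p53, was the exception at 62.5 and 19.6 CPM (1.67, 1.49 to 1.86). Of 7 genes on this list 1 was higher and 0 lower, with a median of -0.38.

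Cdkn1a (ENSMUSG00000023067, chromosome 17, 29090976 to 29100727, plus strand) was the most abundant of the inhibitors in both libraries. It had 30695 counts in Cipc-scko cells against 6618 in Cipc-flox/flox cells, or 1912 and 391.0 CPM. The log2 ratio was 2.29 (2.25 to 2.33), 4.89-fold higher in Cipc-scko (4.76 to 5.02). By FPKM it ranked 65 among the 12874 genes in Cipc-scko cells against 334 in Cipc-flox/flox cells. Over all genes 11.3% had a ratio as high or higher. Cdkn1b (ENSMUSG00000003031, chromosome 6, 134920401 to 134925513, plus strand), the inhibitor p27 that is controlled largely through protein breakdown, had 937 counts in Cipc-scko cells against 834 in Cipc-flox/flox cells, or 58.4 and 49.3 CPM. Its log2 ratio of 0.24 (0.11 to 0.38) was the smallest of the 7. The 2 CIP/KIP genes thus differed from each other, with Cdkn1a past 2-fold and Cdkn1b far from it.

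Cdkn1a made up most of the inhibitor RNA. Of the summed FPKM of the 6 inhibitors, which was 716.6 in Cipc-scko cells against 186.4 in Cipc-flox/flox cells, Cdkn1a held 82.8% in Cipc-scko cells against 71.5% in Cipc-flox/flox cells. Cdkn2d came next with 6.44% in Cipc-scko cells against 18.4% in Cipc-flox/flox cells. Cdkn2a and Cdkn2b held 4.06% and 3.43% in Cipc-scko. In order of FPKM the genes ran Cdkn1a (593.3), Cdkn2d (46.1), Cdkn2a (29.1), Cdkn2b (24.6), Mtap (23.2), Cdkn2c (16.2) and Cdkn1b (7.34) in Cipc-scko, where no replicate shows which neighbours differ. In Cipc-flox/flox the order was Cdkn1a (133.3), Mtap (53.04), Cdkn2d (34.2), Cdkn2c (12.0) and Cdkn1b (6.81), with Cdkn2a and Cdkn2b listed at 0. The gene length behind the deposited FPKM, computed back from the counts, was 7580 bases for Cdkn1b against 4552 bases of annotated exons. That length also exceeded the annotated span of the gene from start to end. Orders, shares and ranks by FPKM thus rest on lengths that differ from the annotation used here. The order of the 7 genes was the same with exon lengths in each library. With exon lengths Cdkn1b stood at 12.2 in Cipc-scko cells against 11.3 in Cipc-flox/flox cells on the same scale, still the lowest of the counted inhibitors.

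**Figure D3:**
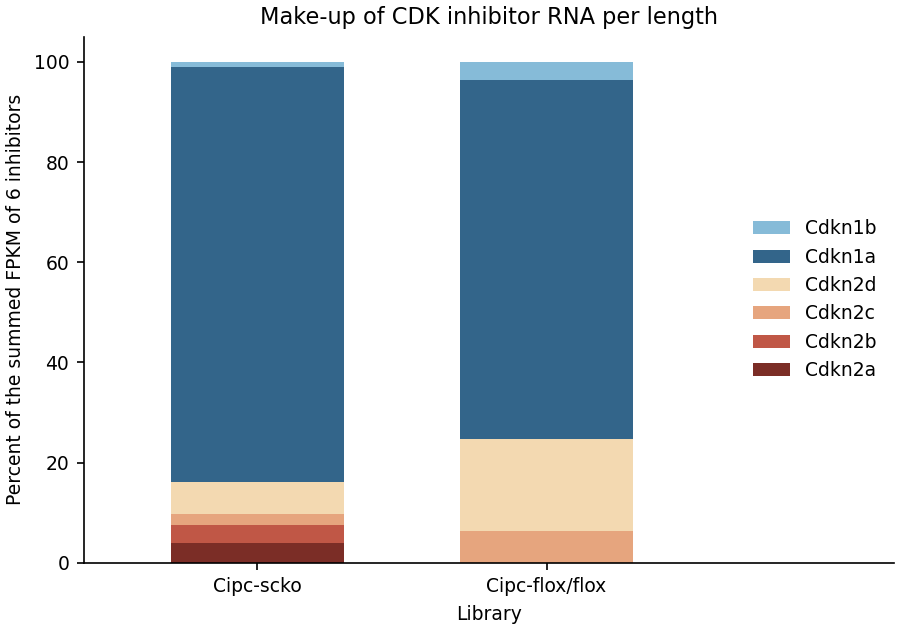
Share of each of the 6 CDK inhibitor genes in their summed deposited FPKM (percent), in the Cipc-scko library (left bar) and the Cipc-flox/flox library (right bar). Cdkn1a takes 82.8% in Cipc-scko cells against 71.5% in Cipc-flox/flox cells, and the Cdkn2a and Cdkn2b segments are present only in the Cipc-scko bar.

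The genes on the list of CIP/KIP partners and targets went both ways, more of them lower in Cipc-scko. Of 11 genes 6 were lower and 1 higher, at a median log2 ratio of -1.06. The share called was 63.6%, against 37.2% over all genes. The lower ones were Cdk1, the cyclins Ccnb1 and Ccne2, the replication clamp gene Pcna and the phosphatase genes Cdc25b and Cdc25c. Cdk2 stood at 112.4 CPM in Cipc-scko cells against 75.6 CPM in Cipc-flox/flox cells (0.57, 0.47 to 0.68), and Cdk1, the mitotic kinase, was lower at 93.4 and 204.8 CPM (-1.13). The E cyclins, which activate CDK2, went opposite ways. Ccne1 was higher at 82.0 and 40.1 CPM (1.03, 0.90 to 1.17), and Ccne2 lower at 4.86 and 15.3 CPM (-1.65, -2.04 to -1.28). The phosphatase gene Cdc25c, an activator of CDK1, was lower at 16.3 and 37.9 CPM (-1.22, -1.43 to -1.01). Summed over both CIP/KIP genes and over Cdk1 and Cdk2, inhibitor RNA per kinase RNA in FPKM was 9.71 in Cipc-scko cells against 1.86 in Cipc-flox/flox cells. The lengths behind the FPKM of Cdk1 and Cdk2 were not checked. In counts the CIP/KIP genes summed to 31632 in Cipc-scko cells against 7452 in Cipc-flox/flox cells, and Cdk1 with Cdk2 to 3304 and 4746.

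Genes of p27 breakdown differed little. Skp2, the ubiquitin ligase subunit that recognises p27, stood at 26.5 CPM in Cipc-scko cells against 35.2 CPM in Cipc-flox/flox cells (-0.41, -0.59 to -0.23), and its cofactor Cks1b at 77.5 and 125.8 CPM (-0.70, -0.80 to -0.60). The ligase subunit Rbx1 was lower at 84.0 and 175.4 CPM (-1.06, -1.16 to -0.97). Fbxw7 at 13.7 and 9.63 CPM (0.51, 0.21 to 0.81) and Cops5 at 98.2 and 110.0 CPM (-0.16, -0.26 to -0.07) had the highest ratios of the list. Of 7 genes 1 was lower and 0 higher, with a median of -0.27.

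Among 6 further inhibitors and CDK-associated genes, 2 were higher, 1 lower and 3 not called, at a median log2 ratio of 0.38. The share called was 50%, against 37.2% over all genes. The third CIP/KIP gene Cdkn1c, an imprinted inhibitor, had 66 counts in Cipc-scko cells against 2 in Cipc-flox/flox cells (4.80, 3.21 to 8.20). The CDK-dephosphorylating phosphatase gene Cdkn3 stood at 8.41 and 4.73 CPM (0.83, 0.42 to 1.25). Cdk5rap3 was just past the limit at 101.6 and 49.8 CPM (1.03, 0.91 to 1.15), and Cdk2ap2, at 102.2 and 158.0 CPM (-0.63, -0.72 to -0.54), did not reach it. Hexim1, an inhibitor of the transcription kinase CDK9, was lower at 47.7 and 128.0 CPM (-1.42, -1.54 to -1.30).

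p53 targets other than Cdkn1a went both ways. Of 16 past the filter 7 were higher and 2 lower, at a median log2 ratio of 0.83. The share called was 56.25%, against 37.2% over all genes. The highest were the death receptor Fas, with 110 counts in Cipc-scko cells against 2 in Cipc-flox/flox cells (5.53, 3.97 to 8.92), and the stress gene Gadd45a at 107.2 and 27.4 CPM (1.97, 1.82 to 2.12). Sesn1 at 11.5 and 34.1 CPM (-1.57, -1.82 to -1.33) and Tigar at 15.2 and 31.0 CPM (-1.03, -1.25 to -0.81) were the lowest. Trp53cor1, a noncoding RNA gene of the p53 response next to Cdkn1a, had 130 counts in Cipc-scko cells against 15 in Cipc-flox/flox cells (3.15, 2.42 to 4.07), a gene looked at after its value was seen.

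Known inducers of Cdkn1a and Cdkn1b in differentiating cells differed over a wide range. Myog, the driver of terminal muscle differentiation, stood at 2758 CPM in Cipc-scko cells against 3.13 CPM in Cipc-flox/flox cells (9.77, 9.40 to 10.20), and Myod1, which induces Cdkn1a in myoblasts, at 1192 and 113.2 CPM (3.40, 3.33 to 3.46). Klf4 was lower at 33.8 and 166.5 CPM (-2.30, -2.44 to -2.17), and Tgfbr1, a TGF-beta receptor, stood at 14.0 and 22.3 CPM (-0.68, -0.92 to -0.44). Of 12 genes 4 were higher and 1 lower, with a median of 0.19. In the same libraries all 15 listed myogenic differentiation genes were higher in Cipc-scko, from Des at 1.17 and Myod1 at 3.40 up to Actc1 at 13.31 and Myh7 at no less than 13.26 in log2. Their summed CPM was 26574 in Cipc-scko cells against 2146 in Cipc-flox/flox cells, and their part in the Cdkn1a difference was not tested.

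Repressors and activators of the Cdkn2a locus differed little as lists. Of 18 counted repressors, mostly Polycomb subunits that silence the locus, 2 were higher and 1 lower, at a median log2 ratio of -0.16. Bmi1 stood at 40.4 CPM in Cipc-scko cells against 58.4 CPM in Cipc-flox/flox cells (-0.53, -0.68 to -0.39), and Ezh2, the methyltransferase of Polycomb, at 23.4 and 44.5 CPM (-0.93, -1.11 to -0.75). Pcgf2 was lower at 14.2 and 36.04 CPM (-1.34, -1.57 to -1.12). Tbx3 was higher at 42.0 and 9.98 CPM (2.07, 1.83 to 2.32), as was Cbx7 at 49.3 and 17.4 CPM (1.499, 1.31 to 1.70). The named repressors thus went both ways, and their part in the Cdkn2a difference was not tested.

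Of 10 known activators of the Cdkn2a locus 2 were higher and 1 lower. Kdm6b, a demethylase that removes the Polycomb mark, was higher at 116.8 CPM in Cipc-scko cells against 52.7 CPM in Cipc-flox/flox cells (1.15, 1.03 to 1.26), and so was Ets1, an activator of p16, at 53.6 and 17.4 CPM (1.62, 1.43 to 1.82). Kdm6a at 13.0 and 25.7 CPM (-0.99, -1.23 to -0.75) did not reach the limit, while Jmjd1c at 20.2 and 59.3 CPM (-1.55, -1.73 to -1.37) was lower. The median of the list was 0.12, and it changed sign with scaling by library totals (-0.02).

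Genes that act with Mtap were mostly near equality. Of 16 genes of the methylthioadenosine cycle and polyamine synthesis 1 was higher and 3 were lower, at a median log2 ratio of 0.07 that became -0.07 with scaling by totals. Odc1, the first enzyme of polyamine synthesis, was higher at 380.1 CPM in Cipc-scko cells against 167.3 CPM in Cipc-flox/flox cells (1.18, 1.12 to 1.25). Its regulator Azin1 was lower at 86.1 and 272.3 CPM (-1.66, -1.75 to -1.57), as was Sat1, the enzyme that acetylates spermidine and spermine, at 87.1 and 267.6 CPM (-1.62, -1.71 to -1.53). Mri1, which acts after Mtap in the salvage path, stood at 31.8 and 16.9 CPM (0.91, 0.70 to 1.13), and Prmt5, the arginine methyltransferase that methylthioadenosine inhibits, at 148.7 and 127.3 CPM (0.23, 0.14 to 0.31).

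**Figure D4:**
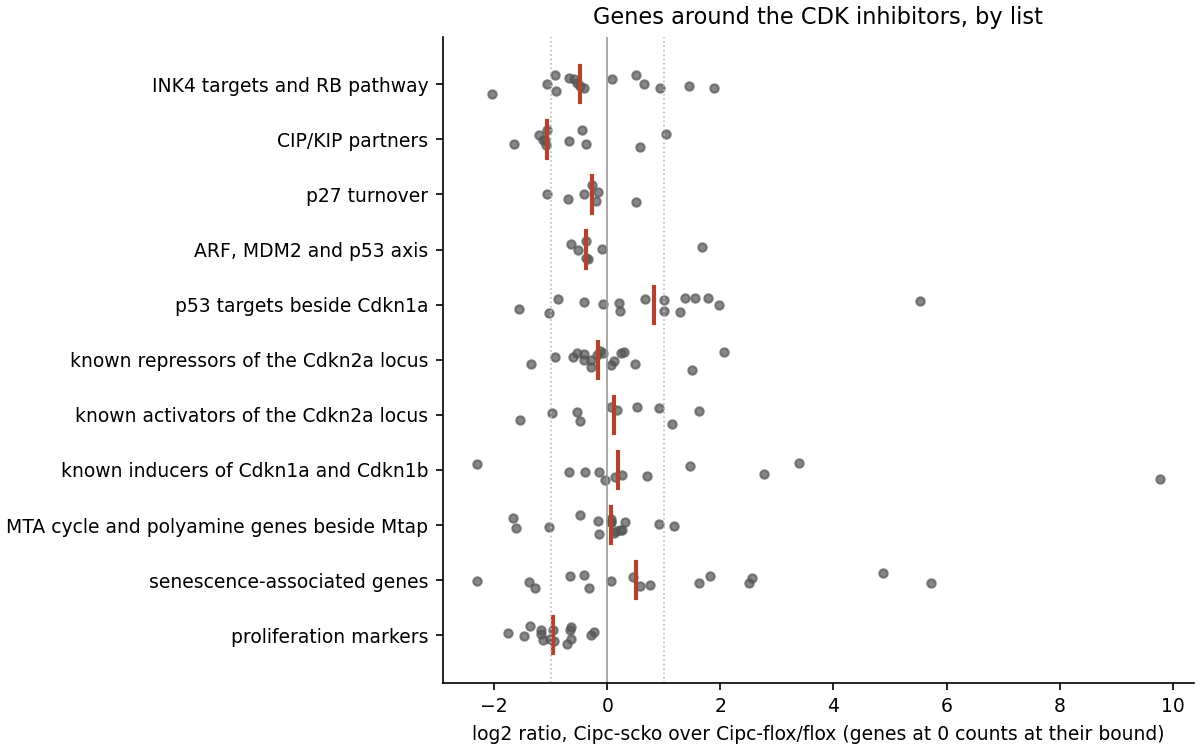
Log2 ratio (positive where higher in Cipc-scko than in Cipc-flox/flox) of each gene past the filter in 11 lists (points, genes at 0 counts at their bound), with the list median as a vertical bar and dotted lines at 2-fold. The medians run from -1.06 for CIP/KIP partners to 0.83 for p53 targets, and most points of the locus repressors lie between the dotted lines.

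Proliferation and senescence genes were set beside the inhibitors. Of 15 proliferation markers 0 were higher and 7 lower in Cipc-scko, at a median log2 ratio of -0.95. That is 46.7% called, all lower, where over all genes 21.2% were higher and 15.9% lower. Mki67 stood at 54.3 CPM in Cipc-scko cells against 119.8 CPM in Cipc-flox/flox cells (-1.14, -1.26 to -1.03). The lowest were Bub1 (-1.75) and Tk1 (-1.46), and the least different Aurkb (-0.24) and Plk1 (-0.29). Of 16 senescence-associated genes 6 were higher and 3 lower, with a median of 0.52. The list holds genes known for loss in senescence as well as genes known for a rise, so neither number gives a direction. Lmnb1 (-0.41), Hmgb1 (1.82, called higher) and Hmgb2 (-0.32) are of the first kind. The cytokine gene Il6 had 151 counts in Cipc-scko cells against 0 in Cipc-flox/flox cells, at least 53.1-fold higher, and Igfbp3 stood at 106.7 and 3.60 CPM (4.88, 4.52 to 5.28). Ccl2, also of the secretory set, was lower at 8.22 and 40.8 CPM (-2.31, -2.59 to -2.04), as was Plaur at 58.2 and 141.9 CPM (-1.29, -1.40 to -1.18).

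Markers of other cell types also differed between the 2 libraries, and their part in the values above was not tested. Of 7 macrophage markers 4 were rows of the count table, and these summed to 6.17 CPM in Cipc-scko cells against 47.3 CPM in Cipc-flox/flox cells, with Cd68 and Cd14 lower and Csf1r higher in Cipc-scko. The 5 endothelial markers summed to 8.22 and 8.45 CPM, but single markers went opposite ways. Kdr had 112 counts in Cipc-scko cells against 2 in Cipc-flox/flox cells (5.56, 3.997 to 8.95) and Flt1 had 0 and 128, at least 40.5-fold lower. Tek, with 0 and 11 counts, Pecam1, with 19 and 0, and Cdh5, with 1 and 2, did not pass the filter. Of 6 fibro-adipogenic and fibroblast markers 2 were higher and 2 lower (3040 and 1449 CPM summed), with Pdgfra at 0.685 and 8.68 CPM and Col1a1 at 448.2 and 115.6 CPM. Of 4 smooth muscle and pericyte markers 3 were higher and 1, Cspg4, lower (12850 and 626.8 CPM summed), most of it from Acta2. The 3 Schwann cell markers summed to 1.43 CPM in Cipc-scko cells against 2.48 CPM in Cipc-flox/flox cells.

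Genes most like each of 3 members were found by Euclidean distance of log2(CPM + 0.5) over the 2 libraries. Those nearest to Cdkn2a were Lmod2 on chromosome 6, Slc1a6 on chromosome 10 and Sp110 on chromosome 1, at distances of 0.0103, 0.0267 and 0.105, with 693, 701 and 639 counts in Cipc-scko cells against 0 for each in Cipc-flox/flox cells. Nearest to Cdkn1a were B2m (0.339), Hspg2 (0.434) and Thbs1 (0.488). Nearest to Mtap were Plekho1 (0.0489), Rbx1 (0.0615) and Hsph1 (0.0667). Likeness over 2 libraries is weak, since any genes of like level and ratio meet it.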

How the data were processed

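Total RNA of 1 Cipc-scko and 1 Cipc-flox/flox library was compared. CASAVA, HISAT2 2.0.4, StringTie 1.3.0 and GRCm38 are listed in the submitters' processing notes, with no roles; the sources used here do not give the counting tool, its use of strand or the annotation release. Raw counts for each Ensembl gene and FPKM were deposited by the authors, per the file headers. Between the libraries the deposited FPKM follow the counts rescaled by library totals (FPKM ratio over count-share ratio between 0.9997 and 1.0002). Gene length cancels in that check, so it says nothing of the lengths used for FPKM.

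Symbols and positions came from GENCODE vM21 (16116 of 16190 identifiers named). Counts were scaled with TMM (edgeR 4.0.16, R 4.3.3). Log2 ratios used a prior count of 0.5, 95% exact binomial (Clopper-Pearson) intervals of the count split, and a floor of 3 counts for genes at 0. A value given as at least or no less than is taken against this floor. The 95% interval of such a gene reaches closer to equality. DESeq2 1.42.0 size factors served as an alternative. Without molecular identifiers reads are not separate molecules, so intervals and floors cover counting error only. No transcript outside its own gene matched a member at 95% identity over 80% of the shorter one (BLAST+ 2.17.0), and no counted gene overlapped a member in the annotation. The calls were tried on simulated counts that held counting error only, as the intervals assume. Variation between animals was not simulated, so this says nothing of whether the calls would repeat.

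The members, the 19 gene lists and the tests were chosen with earlier results of these data known. Named by rule were the 7 genes, counted genes within 1 Mb of Cdkn2a and the nearest past the filter on each side (Tusc1 lies beyond 1 Mb), the 2 highest and lowest of each list at 5 CPM or more, direct partners (among them Bmi1 and Mki67), and the 3 nearest patterns of 3 members; of the satellite, macrophage, endothelial, fibroblast, pericyte and Schwann cell lists only some genes are printed. Myf5, Cdk1, Npm1, Cdkn1c, Trp53cor1, Adamtsl1, Plin2, Gm12415, Ccnb1, Pcna, Cdc25b, Lmnb1, Hmgb1, Hmgb2, Csf1r, Pecam1, Tek, Cdh5, Xist, Ddx3y and the stretches of genes at 0 fall outside it and were named after their values were seen.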

Additional observations from a re-analysis of the deposited data

How the results depend on the processing

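No paired analysis was possible because each group has 1 library, and for the same reason no replicate could be left out. The calls of the 7 genes did not change under other scalings, a prior count of 5 or FPKM. The bounds of Cdkn2a and Cdkn2b lay between 7.78 and 7.96 and between 7.53 and 7.70 in log2 over the scalings; no value is given for them with FPKM, which is listed at 0, and the prior does not enter a bound. Cdkn1a stood at 2.15 with library totals, 2.33 with the upper quartile, 2.202 with totals that leave out mitochondrial genes and the 10 with most counts, and 2.15 with FPKM at pseudocounts of 0.1 and 1 (2.153 and 2.145). Mtap stood at -1.19 with totals, -1.19 with FPKM at 0.1 and -1.16 at 1. Cdkn1b stood at 0.11 with totals, 0.11 with FPKM at 0.1 and 0.095 at 1, and with the pseudocount of 1 Cdkn2c stood at 0.40 and Cdkn2d at 0.42. With totals the median over all genes shifted by -0.14 and the share of calls that were higher to 50.8%, against 57.1%.

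At a fold limit of 4, 1608 genes were called higher, 860 lower and 0 of the 7 lower, since Mtap is near 2-fold; a limit of 1.5 gave 3318 lower; FPKM with a pseudocount of 1 gave 1479 higher. The cause of the last was not tested. Genes at 0 in Cipc-flox/flox only numbered 439 with a minimum of 20 counts and 113 with 200, against 278, and those at 0 in Cipc-scko only 207 and 57, against 119; the minimum itself sets these. Around Cdkn2a a window of 10 Mb held 11 higher and 10 lower genes, and one of 2 Mb 2 lower. Of 170 alternative list medians 29 moved by over 0.25 or changed sign; 15 changed sign, in the lists of locus activators, polyamine genes, further CDK-associated genes, and endothelial (2 genes) and fibroblast markers. No Schwann cell marker was left at a filter of 5 CPM. Depth limits Gm12606, Gm12602 and Wincr1, which had under 50 counts in each library.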

Other observations

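The genes next to the other inhibitors differed without a common pattern. Beside Cdkn2c, Rnf11 was higher (log2 1.09, 1.01 to 1.18) and Faf1 was not called (0.22). Beside Cdkn2d, Slc44a2 was higher (1.12, 1.08 to 1.16), while Kri1 stood at 43.1 CPM in Cipc-scko cells against 43.5 CPM in Cipc-flox/flox cells. Rab44, on the far side of Cdkn1a from Trp53cor1, had 39 and 14 counts (1.52, 0.64 to 2.55). The noncoding gene Lockd beside Cdkn1b had 79 counts in Cipc-scko cells against 81 in Cipc-flox/flox cells (0.04, -0.43 to 0.51), and Gpr19 on its other side had 77 and 32 (1.33, 0.73 to 1.99). These neighbours were looked at after the other values were seen.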
